A study of Drosophila melanogaster with 3 samples.

Results

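The proteasome is the barrel-shaped protease that degrades proteins tagged with ubiquitin, and its subunits are made in every cell. Its core particle stacks rings of alpha subunits, which gate the entrance, on rings of beta subunits, some of which carry the proteolytic sites. A regulatory particle caps the barrel: its base holds a ring of ATPases (the Rpt subunits) that unfold substrates, and its lid removes ubiquitin. Drosophila carries further copies of several subunit genes, and copies such as Prosalpha3T and Prosalpha6T are known from the male germ line.

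Proteasome subunit genes were taken as the protein-coding genes whose symbol starts with Prosalpha, Prosbeta, Rpn or Rpt followed by a digit, which gave 48 of 13968 genes on the chromosome arms. Of these, 32 were standard subunit genes: 7 core alpha, 7 core beta, 10 base and 8 lid genes. Subunits under other symbols, such as the lid subunit Sem1, are not among them. The other 16 carry a T or R in the suffix of the symbol and are called testis-type paralogues here by that suffix alone; no expression was measured. Members lay on 2L (8), 2R (13), 3L (7), 3R (14) and X (6).

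Binding was measured by chromatin immunoprecipitation and sequencing of whole Drosophila melanogaster embryos, 0 to 24 h old and of pooled sexes. All came from the transgenic line lab-GFP, which stably expresses the homeotic transcription factor Labial (lab) with GFP at its C terminus, and an antibody against GFP was used. There was 1 group of 3 biological replicates and no second condition, so no contrast was tested. Labial acts mainly in the embryonic head and midgut, whereas whole embryos were sampled, so the cells behind a peak cannot be told apart. Embryos lacking the fusion were not analysed here, so signal independent of Labial cannot be told apart.

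There were 30000 ranked peaks per replicate, and as many from the pooled replicates. The irreproducible discovery rate (IDR) list held 10160 peaks, which were the pooled peaks of highest signal. A gene was counted as having a promoter summit when the summit of a peak, its highest point, lay within 500 bp of any annotated start site. Ranks count from 1, the strongest peak of a list by the authors' signal. Replicate support was counted among each replicate's 10160 strongest peaks unless the whole list is named.

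Promoter stretches of 4 genes with strong or well supported peaks are shown as reference sequence (NCBI Release 6, the dm6 build), 5' to 3' on the strand of the proteasome gene. Capitals mark the 11 bases around the pooled summit. For Rpn3, Rpn2 and Prosbeta2 the stretch is the whole gap to the start site of the gene on the other strand, l(2)37Bb, Slbp and mRpL39 in this order. For Rpn11 it is the 200 bases upstream of the start site. The stretches are chr2L:19051613-19051789, chr3R:29153267-29153523, chr3L:14999667-14999950 and chr2L:5059791-5059990, the last on the minus strand and the others on the plus strand.
Rpn3: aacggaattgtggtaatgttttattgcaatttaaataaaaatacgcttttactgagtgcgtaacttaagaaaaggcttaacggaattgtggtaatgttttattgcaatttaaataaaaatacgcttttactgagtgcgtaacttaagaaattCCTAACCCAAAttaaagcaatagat
Rpn2: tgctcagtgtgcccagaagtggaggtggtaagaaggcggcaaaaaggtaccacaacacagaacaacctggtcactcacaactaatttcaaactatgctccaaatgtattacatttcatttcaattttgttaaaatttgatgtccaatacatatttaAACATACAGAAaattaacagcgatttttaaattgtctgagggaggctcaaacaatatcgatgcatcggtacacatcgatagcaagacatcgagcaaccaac
Prosbeta2: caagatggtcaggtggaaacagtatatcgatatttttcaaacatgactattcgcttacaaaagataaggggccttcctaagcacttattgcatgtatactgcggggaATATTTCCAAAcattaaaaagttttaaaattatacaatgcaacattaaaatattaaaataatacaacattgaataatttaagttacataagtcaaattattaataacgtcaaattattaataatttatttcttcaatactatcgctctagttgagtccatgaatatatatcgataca
Rpn11: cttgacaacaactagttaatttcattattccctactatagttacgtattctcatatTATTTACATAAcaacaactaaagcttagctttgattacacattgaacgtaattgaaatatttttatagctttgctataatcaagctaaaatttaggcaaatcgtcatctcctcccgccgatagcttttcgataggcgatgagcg
The Rpn3 stretch holds a 72-base sequence in 2 exact copies, at bases 1 to 72 and 79 to 150, and its summit lies at base 158, just past the second copy and next to the gene's start. A and T made up 71.2% of bases for Rpn3, 61.9% for Rpn2, 72.9% for Prosbeta2 and 67.0% for Rpn11.

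A promoter summit in the IDR list was present at 11 of the 48 proteasome genes (22.9%, background 25.5%), and all of them were standard subunit genes. That is 34.4% of the 32 standard genes, 11 of 32, against the same background. In the whole pooled list this gap was absent, with 37.5% of standard genes and 38.1% of all genes. In the replicates' own lists 11, 10 and 13 standard genes had one, a mean of 11.3 ± 1.53 (SD, n = 3), where 28.2%, 24.7% and 26.4% of all genes did. All 3 replicates had a promoter summit at 10 of the standard genes, 31.2% (background 20.6%). None of the 16 testis-type paralogues had one in the IDR list or in any replicate's list. Genes are not replicates of a condition, so these shares are a description and no test was made.

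The lid stood highest among the subcomplexes. A promoter summit was present in the IDR list at 5 of 8 lid genes (62.5%), 2 of 10 base genes (20.0%) and 4 of 14 core particle genes (28.6%), the last split evenly between alpha and beta subunits. Over all protein-coding genes the share was 25.5%, and base and core lay near it. The lid subunit Sem1, which the symbol rule leaves out, had no promoter summit in the IDR list or any replicate's list. Within the base, 2 of the 4 non-ATPase genes had one and none of the 6 ATPase genes did. The replicates' own lists held 5, 5 and 6 lid genes, 3 base genes each, and 3, 2 and 4 core genes in replicates 1, 2 and 3. Of all genes 28.2%, 24.7% and 26.4% had one there. Bound in all 3 replicates were 5 lid genes (62.5%), 3 base genes (30%) and 2 core genes (14.3%), against 20.6% of all genes. The order of lid above base and core is therefore seen in every replicate, on at most 14 genes per class; base and core are not in the same order in the IDR list and in replicates 1 to 3.

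**Figure D1:**
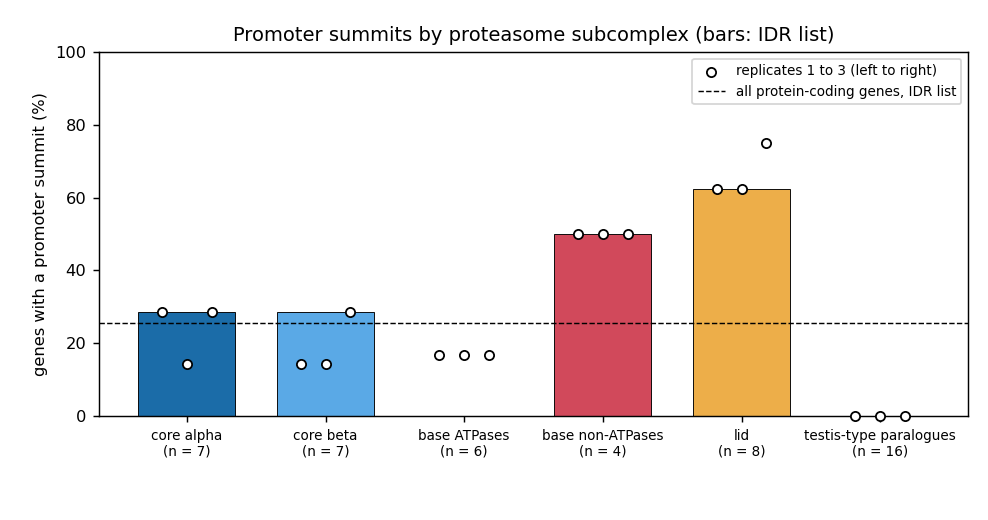
Share of genes with a promoter summit (%) in each proteasome subcomplex. Bars are the IDR list, circles the 3 replicates' own strongest peaks, and the dashed line all protein-coding genes in the IDR list (25.5%); the lid bar stands at 62.5% and the testis-type paralogues at 0 in every list.

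Among the members, the lid genes Rpn3 and Rpn5 held the strongest peaks, ahead of the core gene Prosbeta2 at rank 2771. The median rank over the bound lid genes was 3974, weaker than the 3376 of all bound genes. Rpn3, a scaffold subunit of the lid, had a peak at chr2L:19051714-19051899 of signal 900.9 and rank 1224, with ranks 1295, 1099 and 1492 in replicates 1, 2 and 3. Its summit lay 20 bp upstream of the start site. The replicates placed the peak within a narrow span of ranks, all in the strongest part of their lists.

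Rpn5, another scaffold subunit, had a peak at chr3R:5789127-5789341 of signal 722.0 and rank 1771, and ranks 1428, 1989 and 1856 in the replicates. Its summit lay 216 bp upstream of the Rpn5 start site and 107 bp from a start site of Hat1, a histone acetyltransferase gene. Rpn11, the metalloprotease that cuts ubiquitin from substrates, had a peak at chr2L:5059717-5060140 of signal 424.5 and rank 3974, 139 bp upstream of its start. It ranked 7612 in replicate 1 but 3245 and 3227 in replicates 2 and 3, and no start site of another gene was within 500 bp of the summit.

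Rpn8, the partner of Rpn11 in the lid, had the most distant summit of the 11 genes. Its strongest peak, at chr2R:24399384-24399807 with signal 380.4 and rank 4675, had its summit 432 bp upstream of the start site, and a weaker IDR summit lay at 231 bp. It ranked 8397 and 8215 in replicates 1 and 2 and 2642 in replicate 3, so replicate 3 stood apart. Rpn9, also a lid scaffold, was the only one with a summit downstream of its nearest own start site, by 207 bp. This peak had signal 275.0 and rank 6942, and ranked 8753, 9637 and 5991 in the replicates.

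The other lid genes counted, Rpn6, Rpn7 and Rpn12, had no IDR promoter summit. Rpn12 came just short of the threshold: a pooled peak of signal 192.4 and rank 10499 lay at its promoter, while the lowest signal in the IDR list was 197.9. It ranked 29158 in replicate 1 and 8966 in replicate 3, and replicate 2 had no promoter summit there. Rpn6 and Rpn7 had none in the pooled list or in any replicate's whole list.

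In the base, both bound genes encode non-ATPase subunits. Rpn2, a large scaffold, had a peak at chr3R:29153216-29153639 of signal 379.9 and rank 4684, with ranks 4814, 4568 and 5568 in the replicates. Its summit lay 96 bp upstream of its start and 162 bp from the start of Slbp, which encodes the histone mRNA stem-loop binding protein. Rpn13, a ubiquitin receptor, had a peak at chr2R:13960278-13960701 of signal 345.8 and rank 5261, with ranks 3972, 4449 and 7799. The summit was 86 bp upstream of its start and 185 bp from a start of CtsL1, a cathepsin gene. The remaining non-ATPase genes, Rpn1 (a scaffold) and Rpn10 (a ubiquitin receptor), had no promoter summit in any list.

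Rpt5, an ATPase of the base, differed between the replicate and the pooled lists. All 3 replicates had a promoter summit there, with signals 188.5, 185.1 and 195.6 and ranks 2322, 2748 and 3062, at 18, 24 and 30 bp upstream of the start site. The widest of these peaks, in replicate 3, spanned chr3R:23752641-23753050. Another gene, RanBP3, also starts within 500 bp of the Rpt5 start site. The pooled list of 30000 peaks held none, and its nearest summit was 5303 bp away. The reason was not tested. Over all genes, 2876 had a promoter summit in all 3 replicates' strongest peaks, and 30 of these (1.04%) had none in the whole pooled list, Rpt5 among them. The other ATPase genes, Rpt1, Rpt2, Rpt3, Rpt4 and Rpt6, had no promoter summit in any list.

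In the core particle, 4 genes were bound and their support across replicates was less even. Prosbeta2, which carries the trypsin-like site, had a peak at chr3L:14999715-14999855 of signal 544.1 and rank 2771, and ranks 2540, 3473 and 3127 in the replicates. Its summit lay 172 bp upstream of its start and 113 bp from the start of mRpL39, a mitochondrial ribosomal protein gene. Prosalpha3, an alpha ring subunit, had a narrow peak at chr2R:20994754-20994867 of signal 405.5 and rank 4229, with ranks 3448, 4632 and 4926, 70 bp upstream of its start. No replicate peak reached a reciprocal overlap of 50% with the IDR peak of either gene, but all 3 had a summit within 100 bp of the IDR summit. By summits, these peaks were found in every replicate.

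The remaining core peaks were not. Prosalpha4, an alpha ring subunit, had a peak at chrX:16275730-16276153 of signal 357.0 and rank 5049, with ranks 5520 and 6491 in replicates 1 and 3 and no promoter summit in replicate 2. Its summit was 328 bp from its own start but 25 bp from a start of kat80, a katanin subunit gene. Prosbeta1, which carries the caspase-like site, had a peak at chr2R:16014652-16015075 of signal 199.3 and rank 10071, close to the end of the IDR list. It ranked 18233 in replicate 1 and 6719 in replicate 3, and replicate 2 again had none. The summit lay 77 bp upstream of Prosbeta1 and 44 bp from the start of Rrp42, an RNA exosome subunit gene.

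The unbound core genes were Prosalpha1, Prosalpha2, Prosalpha5, Prosalpha6 and Prosalpha7, and Prosbeta3, Prosbeta4, Prosbeta5 (the chymotrypsin-like subunit), Prosbeta6 and Prosbeta7. Of these only Prosbeta7 had a promoter summit in any replicate's whole list, in replicate 1 at rank 21561.

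**Figure D2:**
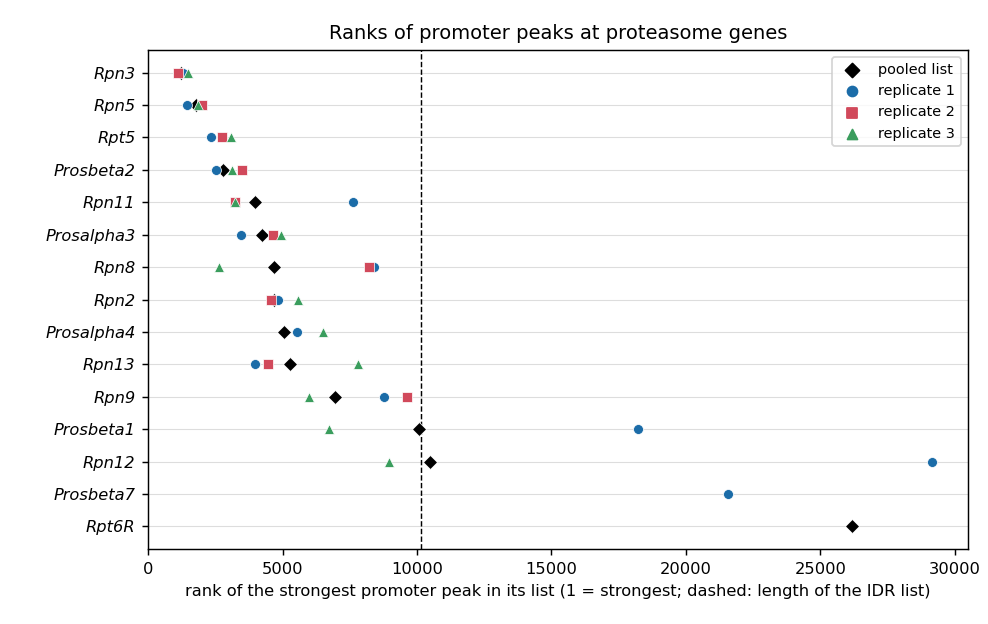
Rank of the strongest promoter peak (1 is the strongest) in the pooled list and in each replicate's whole list, for the 15 proteasome genes with a promoter summit in at least 1 list. A missing symbol means no promoter summit in that list; Rpt5 has ranks 2322, 2748 and 3062 in the replicates and no pooled symbol, and Prosbeta1 and Rpn12 lie on either side of the dashed line at rank 10160.

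Peaks at the 11 bound genes had a lower median signal than promoter peaks of all genes, a difference that was not tested. Their median rank was 4675 and their median signal 380.4, against 3376 and 478.1 for the promoter peaks of all 3558 genes that had one. Of the 11, 9 had a promoter summit in all 3 replicates, 81.8%, against 79.8% of all bound genes. The list's most common width of 424 bp was found in 7 of the peaks and 4 were narrower (Prosalpha3, Prosbeta2, Rpn3 and Rpn5); among all bound genes 55.6% had the common width and 40.2% were narrower.

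Bound members lie within 500 bp of an IDR summit by definition, and no member had its nearest IDR summit close to that limit. The bound genes farthest from a summit were Prosalpha4 at 328 bp, Rpn8 at 231 bp and Rpn5 at 216 bp. The closest unbound genes were Prosbeta6 at 1112 bp, Rpn12 at 1582 bp and Rpn7 at 2746 bp. For testis-type paralogues the nearest summit was between 3383 bp (Prosbeta2R2) and 54128 bp (Prosbeta4R1) away.

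**Figure D3:**
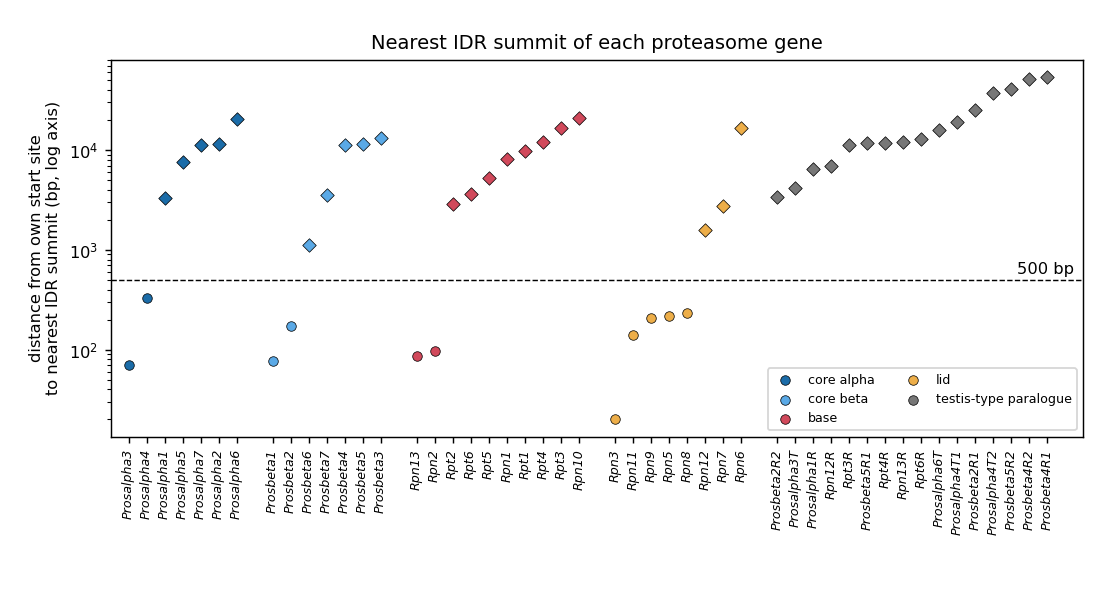
Distance from each proteasome gene's own start sites to the nearest IDR summit (bp, log axis), grouped by subcomplex; circles are genes within 500 bp (dashed line) and diamonds are not. No gene lies between 328 and 1112 bp, and the 16 testis-type paralogues lie at 3383 bp or more.

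The paralogues were set beside the standard genes they resemble. The 16 paralogues belong to 12 standard genes by symbol, of which 4 (33.3%, background 25.5%) had an IDR promoter summit: Prosalpha3, Prosalpha4, Prosbeta2 and Rpn13. Their paralogues Prosalpha3T, Prosalpha4T1, Prosalpha4T2, Prosbeta2R1, Prosbeta2R2 and Rpn13R had none. The others without one were Prosalpha1R, Prosalpha6T, Prosbeta4R1, Prosbeta4R2, Prosbeta5R1, Prosbeta5R2, Rpn12R, Rpt3R, Rpt4R and Rpt6R. Rpt6R alone had a promoter summit in the whole pooled list, at rank 26165 with signal 78.1 (38.1% of all genes had one there), and in no replicate's list.

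Most standard proteasome genes start close to another gene, and promoter summits were more frequent at genes with such a neighbour. Another protein-coding gene started within 500 bp of 21 of the 32 standard genes (65.6%), against 30.8% of all genes and 3 of the 16 testis-type paralogues (18.8%). Of all genes with such a neighbour 36.4% had an IDR promoter summit, and of those without one 20.6%. Of the standard proteasome genes, 9 of 21 (42.9%) with a neighbour and 2 of 11 (18.2%) without one had a promoter summit. These shares rest on 21 and 11 genes, so single genes move them by several points. The part of neighbouring starts in the count was not tested.

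The summits themselves were mostly shared. Of the 11 summits, 9 (81.8%) also lay within 500 bp of the start site of another protein-coding gene, against 41.8% over all bound genes. In 5 of them, including those at Prosalpha4, Prosbeta1, Prosbeta2 and Rpn5, the other gene's start was nearer than the member's own (45.5%, against 19.6%). For Prosalpha3 the other gene was dgt3, an augmin subunit gene, at 449 bp. Only Rpn8 and Rpn11 had no other start within 500 bp of their strongest summit. These distances are of the strongest IDR summit only. The whole pooled list held a further, weaker summit, outside the IDR list, 27 bp from the start of Prosalpha4. Such a summit also lay 27 bp from the start of Prosbeta2 and 17 bp from that of Rpn5. From the member's side, 10 of the 11 summits were upstream of the nearest own start, against 78.6% over all bound genes, and the median distance was 139 bp against 131 bp.

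**Figure D4:**
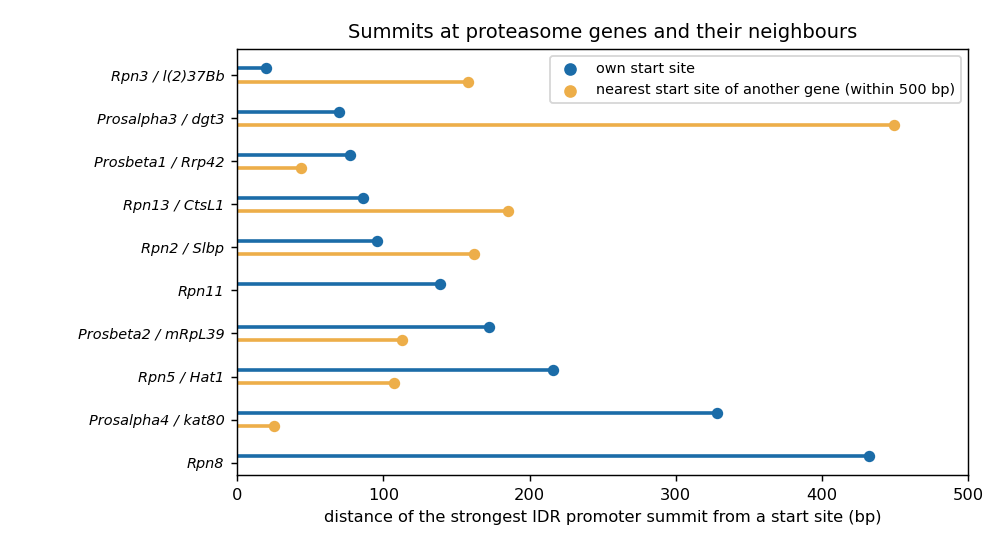
Distance (bp) of the strongest IDR promoter summit at 10 of the 11 bound proteasome genes from its own nearest start site (blue) and from the nearest start site of another protein-coding gene within 500 bp (orange), with the other gene named after the slash. The orange point is nearer at Prosalpha4, Prosbeta1, Prosbeta2 and Rpn5, and Rpn8 and Rpn11 have none.

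Summits elsewhere along the members were few and lay at other genes' starts. Over the genes with 1000 bp on either side, 5 further IDR summits were found, and each lay past the 3' end of the member. The strongest, of signal 3320.2 and rank 92 at chr3R:5791508-5791962, was 208 bp past the end of Rpn5 and 102 bp from the start of Hpf1. The others were at Rpn2 (rank 1649, 236 bp from the start of rdog), Prosbeta6 (rank 3377, 41 bp from CG4098), Rpn13 (rank 5344, 196 bp from AGO1) and Prosalpha4 (rank 7215, 27 bp from eas). None lay inside a proteasome gene away from its promoter.

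The sequence of the promoters was searched next, from 250 bases before to 50 bases after each gene's 5'-most start site, on both strands. The DRE (TATCGATA, the same on both strands), bound by the factor DREF at many housekeeping genes, was present at 12 of the 32 standard genes (37.5%) against 9.36% of all promoters of this length, and at none of the 16 testis-type paralogues. Genes with a neighbouring start within 500 bp had it more often, 16.1% of all such genes against 6.36% of the others, and among standard proteasome genes it was present at 8 of 21 (38.1%) and 4 of 11 (36.4%). A DRE was present at 6 of the 11 bound (54.5%) and 6 of the 21 unbound (28.6%) standard genes, while over all genes 11.6% of bound promoters had one. A match is a match of letters only.

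The DRE of 7 of these genes is shown in capitals with 11 bases on each side, on the gene's strand, because of the motifs searched it had the largest gap between standard genes and all promoters. They lie at chr2L:10221324-10221353 (Prosalpha6), chr3L:14999930-14999959 (Prosbeta2), chr3L:16610444-16610473 (Prosbeta6), chr3R:23752819-23752848 (Rpt5), chr2L:19051582-19051611 (Rpn3), chr3R:22462033-22462062 (Rpn7) and chr3L:16582801-16582830 (Rpn12).
Prosalpha6: cccgaatccctTATCGATAcccgatacaca
Prosbeta2: ccatgaatataTATCGATAcaatatcgatt
Prosbeta6: gtatgtataccTATCGATAacgtttaagca
Rpt5: atcgctgtcacTATCGATAagcgccggcga
Rpn3: tgttatcggagTATCGATAtcgaaaaggct
Rpn7: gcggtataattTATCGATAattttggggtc
Rpn12: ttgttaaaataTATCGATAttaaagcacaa
Prosbeta2 holds 2 copies between its start and that of mRpL39, at bases 25 and 275 of the stretch shown above, the second beginning 10 bases upstream of its start site.

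The other 5 standard genes with a DRE were Prosalpha3, Prosalpha5, Prosbeta1, Rpn9 and Rpn13. Around the strongest IDR summit of the bound genes, searched 1000 bp to either side and not only in the promoter window, the centre of a DRE lay within 100 bp at 4 of 11 (36.4%), against 6.66% of all bound genes. The nearest copy was 21 bp from the summit at Prosalpha3, 41 bp at Prosbeta1, 84 bp at Prosbeta2 and 100 bp at Rpn3. It was 128 bp away at Rpn13, 178 bp at Rpn9 and 255 bp at Rpn11, and none was found at Prosalpha4, Rpn2, Rpn5 or Rpn8. At Prosbeta2, Rpn3 and Rpn11 this copy lies outside the promoter window counted above.

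The site of Labial with its cofactor Exd (TGATTGAT or TGATGGAT) was present in the promoter of 1 standard gene, Prosbeta5, which had no summit. None of the 11 bound genes had it, against 2.43% of all promoters and 1.94% of those of all bound genes. The homeodomain core TAATTA was at 3 standard genes (9.38%), none of them bound, against 20.5%. The GATA site (AGATAA or TGATAA) was at 13 (40.6%), against 36.2%. It was at 3 of the 11 bound genes (27.3%), against 36.6% of all bound genes, and at 10 of the 21 unbound standard genes (47.6%). No match says only that these letters are not in the window. The strongest summits at Rpn8, Prosalpha4 and Rpn9 lay outside this window. Motifs other than the DRE were searched only in this window, so sites under the parts of peaks outside it were not assessed.

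The core of Motif 1 (GGTCACACT), another element of housekeeping promoters, was present at 5 standard genes (15.6%) against 6.04% of all promoters: Prosalpha2, Prosalpha4, Prosbeta3, Rpn1 and Rpn7. Of these only Prosalpha4 was bound, 365 bp from the summit. The element read by Cnc with small Maf proteins (TGACNNNGC), which act on proteasome genes under stress in flies and mammals, was at 5 standard genes (15.6%), Prosalpha2, Prosbeta3, Rpn1, Rpn7 and Rpt6, none bound, against 8.63%. In 2 of these, Prosbeta3 and Rpn1, it overlapped a Motif 1 core, as it did in 6.72% of all promoters with the element. GAGA repeats (GAGAGAG) and the E-box (CACGTG) were in no standard promoter, against 5.86% and 4.23%.

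**Figure D5:**
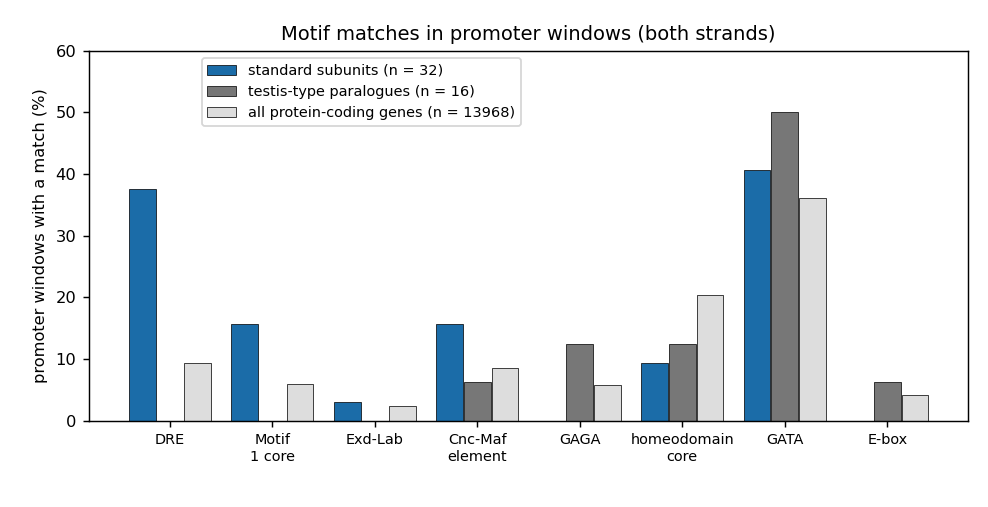
Share of promoter windows (%) with a match to each motif, for the standard subunit genes, the testis-type paralogues and all protein-coding genes. The DRE bars stand at 37.5%, 0 and 9.36%, and the Exd-Lab bars at 3.12%, 0 and 2.43%.

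Genes that work beside the proteasome were counted from a separate list of 24 symbols, of which 23 were matched. An IDR promoter summit was present at 8 of the 23 (34.8%, background 25.5%). In all 3 replicates a promoter summit was present at 5 of the 23 (21.7%), close to the 20.6% of all genes. Of the 8, 62.5% had this support, against 79.8% of all bound genes. Among proteasome-associated genes Pomp, the assembly chaperone of the core, had the strongest, with rank 710 and ranks 759, 677 and 769 in the replicates, stronger than at any subunit gene. Uch-L5, the deubiquitinase docked on Rpn13, had rank 3593 and ranks 3512, 3871 and 4714. The gene ntc, which encodes an F-box protein needed in spermatids, had rank 3151, with 3490 and 2938 in replicates 2 and 3 and none in replicate 1. PI31, REG, Usp14 and Sem1 (itself a lid subunit) had none in the IDR list.

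Of the ubiquitin genes, Ubi-p63E had rank 4672 and ranks 4786, 3600 and 6458 in the replicates. Ubi-p5E had rank 5684, with 6185, 15422 and 5733, and RpL40, RpS27A and the activating enzyme Uba1 had none. Of the 7 shuttle and segregase genes only Ufd1 had one, at rank 7135 and at ranks 5672, 7256 and 11647 in the replicates. TER94, Npl4, Ubqn, Rad23, rngo and p47 had none. Among regulators, cnc had rank 1148, 311 bp downstream of 1 of its 10 start sites, and Keap1 rank 3361, each in all 3 replicates, while maf-S and Pngl had none. Gene lists with more start sites per gene have more chances of a summit, which touches cnc; no standard subunit gene had more than 3 start sites.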

How the data were processed

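The narrowPeak lists of 3 replicates and their pool were used in the dm6 build. A replicate's list came from its own alignments and 1 file common to the replicates, per the labels' file descriptions. The IDR list came from the replicate and pooled lists. Peak signal and −log10 q-value are the authors' deposited values; 7046 IDR peaks share the highest −log10 q of 4.15, so peaks were ranked by signal. Sonicated fragments of 200 to 800 bp were used, per the labels. Not given in the sources used here were the aligner, the caller and the IDR threshold. Read depth is unknown. The 5 lists in dm3 were left out.

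Genes and start sites came from Ensembl release 115. No peak ended beyond an arm of the NCBI Release 6 sequence, from which sequences were read. Peaks of equal interval and signal in 2 replicates numbered 0. Members, lists and motifs were chosen with earlier results of these data known. Every bound member is named, and all others once. Standard genes are those without a T or R suffix; the base holds Rpt1 to Rpt6, Rpn1, Rpn2, Rpn10 and Rpn13. No test was made, since there is 1 group. Alternatives changed the window, the list, the start sites, the use of intervals, the replicates and how support was counted. Promoter assignment was tested on simulated data (2000 summits), with 0 of 13968 genes differing from a direct search. Analyses used Python 3.11.15, numpy 2.4.6, pandas 2.3.3 and matplotlib 3.10.9. Coordinates are 1-based. The neighbour of 1 member is not reported here.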

Additional observations from a re-analysis of the deposited data

How the results depend on the processing

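Of 93 alternative values for the counts of genes and the median rank, 83 stayed within 1.5 times the reported count, or for ranks within the SD over replicates (249.4), and 10 did not. The 11 bound members ranged from 8 with the strongest part of the IDR list (its upper 5080 peaks) to 13 with the whole pooled list. As shares these were 16.7% and 27.1%, where all protein-coding genes had 16.8% and 38.1%; standard genes had 25% and 37.5%. With that shorter list the base had 1 bound gene and all protein-coding genes 2344. With the whole pooled list 1 testis-type paralogue was counted. Leaving out replicates in turn, by genes bound in both remaining replicates, gave 2 to 3 core particle genes in place of 4: 2 without replicate 1, 3 without replicate 2 and 2 without replicate 3. As shares the core had 14.3%, 21.4% and 14.3%, where all protein-coding genes had 21.9%, 23.5% and 22.0%. The lid had 5 (62.5%) under each of these. Members bound in all 3 replicates, 10 as reported, were 5 with the upper 5080 peaks of each replicate and 6 by reciprocal overlap of at least 50% with the IDR peak; Rpt5 cannot count there, since it has no IDR peak. The median rank was 4926 by replicate 3's own list, and 4691 to 5419.5 with a replicate left out. The cause was not tested. Counting genes bound in at least 2 replicates, an alternative added after the data were seen, gave 11 members (22.9%, background 26.1%). With a 250 bp window the strongest Rpn8 peak had rank 8195 in place of 4675. No paired analysis was possible because only 1 group exists.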

Other observations

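Other complexes of many subunits were counted in the same way, chosen after the data were seen. The COP9 signalosome and eIF3 contain subunits related to those of the proteasome lid. Genes were taken by symbol, so subunits under other symbols were missed, and these sets are not complete. No CSN2, eIF3d, eIF3f or eIF3g was among them. Of the 8 COP9 signalosome genes counted 1 had an IDR promoter summit, CSN8, and of the 10 eIF3 genes 2, eIF3b and eIF3h. Of 8 genes of the CCT chaperonin, which folds actin and tubulin, 1 had one, CCT5. The lid had 5 of 8, and 25.5% of all protein-coding genes had one. These shares were not tested against each other.

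Of the 4456 genes with a promoter summit in all 3 whole replicate lists, 1072 (24.1%) had none in the IDR list. PI31, which encodes a proteasome regulator, was one of them, at ranks 4483, 10355 and 7206. Pngl had a summit in replicates 1 and 3 only, at ranks 4951 and 9687.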
